A study of Mus musculus with 12 samples.

Results

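Primary mouse embryonic fibroblasts (MEFs, connective tissue cells grown in culture from embryos) of the C57BL6 strain were profiled by polyA RNA sequencing, and the 6 female (XX) libraries are described here. They comprise 3 libraries of the SIRT7-KO genotype (KO) and 3 of wild-type cells (WT), out of 12 libraries in the series. The other 6 are male libraries of both genotypes, which entered the model fit and 1 test of the difference between the sexes. The female libraries were chosen by the sex and genotype in their labels, not by any measured value. No source used here gives the age of the embryos, the part of Sirt7 removed in the KO cells, or whether replicates came from separate embryos or cultures. The p-values therefore reflect variation among these libraries, and that variation could be technical. Of 24421 genes listed, 15613 had enough counts to be tested, and the series addresses the part of SIRT7 in dosage compensation.

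SIRT7 is a nuclear enzyme of the sirtuin family, which removes acetyl and other acyl groups from lysines at the expense of NAD. It is concentrated in the nucleolus, where ribosomal RNA genes are transcribed by RNA polymerase I, and it is also known for a role at chromatin and in DNA repair. In female mammalian cells 1 X chromosome is silenced by the long noncoding RNA Xist and the proteins it recruits, and some X-linked genes escape this silencing.

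The female libraries held 43737244 to 45713118 counts. X-linked genes took 3.33%, 3.30% and 3.31% of them in WT 1 to 3 and 3.28%, 3.29% and 3.28% in KO 1 to 3. Every KO library thus lay slightly below every WT library in this share, which was not tested. Y-linked Ddx3y, Eif2s3y, Kdm5d and Uty were each at 0 to 0.319 CPM (counts scaled to a common library size) in all 6. Fibroblast markers were abundant in every library by their sum over 15 genes, at 13060 to 14417 CPM in WT and 11303 to 14158 CPM in KO libraries. In that sense the labelled cell type matched its markers. The mean log2 distance of the 15 genes from the mean of the WT libraries was, however, -1.04 in KO 1. It was 0.20 in KO 2, -0.24 in KO 3 and -0.12 to 0.17 in WT libraries. In a principal component analysis of the 6 libraries, however, the first component (46.1% of the variance) set KO 1 (score 74.3) apart from all others (-26.9 to -2.04). Counts of the same group differed by 18.9 (KO 2 and KO 3) to 122 (KO 1 and KO 2) times the sampling variance, so no library copied another.

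KO 1 differed from the other libraries in lineage genes. The muscle regulator Myog was at 15.6, 3.15 and 21.5 CPM in WT 1 to 3 and at 0.272, 7.97 and 19.4 CPM in KO 1 to 3. Embryonic myosin Myh3 was at 87.0, 12.5 and 87.0 CPM in WT and at 0.499, 36.4 and 74.1 CPM in KO libraries. Both muscle genes were thus lowest in KO 1 and next lowest in WT 2, and the other KO libraries lay within the WT range. The fibroblast receptor Pdgfra was at 229, 130 and 136 CPM in WT and at 23.9, 194 and 91.8 CPM in KO libraries, and the proteoglycan Lum was at 85.2, 20.4 and 18.1 against 1.95, 52.96 and 17.8 CPM. The limb transcription factor Tbx5 was at 1.77 CPM in KO 1 and at 22.4 to 53.9 CPM in the other 5 libraries, whereas Hoxb8 was at 67.9 CPM in KO 1 and at 16.9 to 21.0 CPM elsewhere. Sox10, the regulator of glia and neural crest cells, was at 9.50, 2.96 and 4.60 CPM in WT and at 27.3, 5.77 and 7.17 CPM in KO libraries. Lysozyme Lyz2, a macrophage gene, was at 7.43, 20.4 and 1.59 CPM in WT and at 48.2, 3.31 and 2.74 CPM in KO libraries.

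Over whole marker lists, summed levels overlapped between the genotypes, except for 4 adipocyte genes (60.7 to 84.0 CPM in WT and 51.0 to 60.3 CPM in KO libraries). Those of 20 skeletal muscle genes were 447 to 611 CPM in WT and 280 to 624 CPM in KO libraries, with Myf5 at 0 in WT 1 and KO 1 and Chrng at 0 in KO 1. Macrophage genes (14) summed to 22.7 to 75.0 CPM in WT and 27.3 to 123 CPM in KO, and glial genes (10) to 17.4 to 37.0 and 25.2 to 86.2 CPM, with Gfap at 0 in WT 2 and WT 3. Chondrocyte genes (13) summed to 230 to 598 and 216 to 434 CPM, endothelial genes (12) to 221 to 309 and 237 to 285 CPM, neuronal genes (12) to 173 to 231 and 147 to 234 CPM, and epithelial genes (10) to 84.1 to 114 and 79.3 to 123 CPM. No list of other cell types separated the 3 KO from the 3 WT libraries by its score (the mean log2 distance of its genes from the mean of the WT libraries). In bulk RNA, fewer cells of a type and less RNA per cell cannot be told apart. The part of these markers in the results below was not tested, and values without KO 1 are given beside many, but not all, gene lists and genes. Without KO 1 the median log2 change of macrophage genes went from 0.37 to -0.50. That of skeletal muscle genes went from -0.53 to -0.04 and that of glial genes from 1.07 to 0.17.

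**Figure D1:**
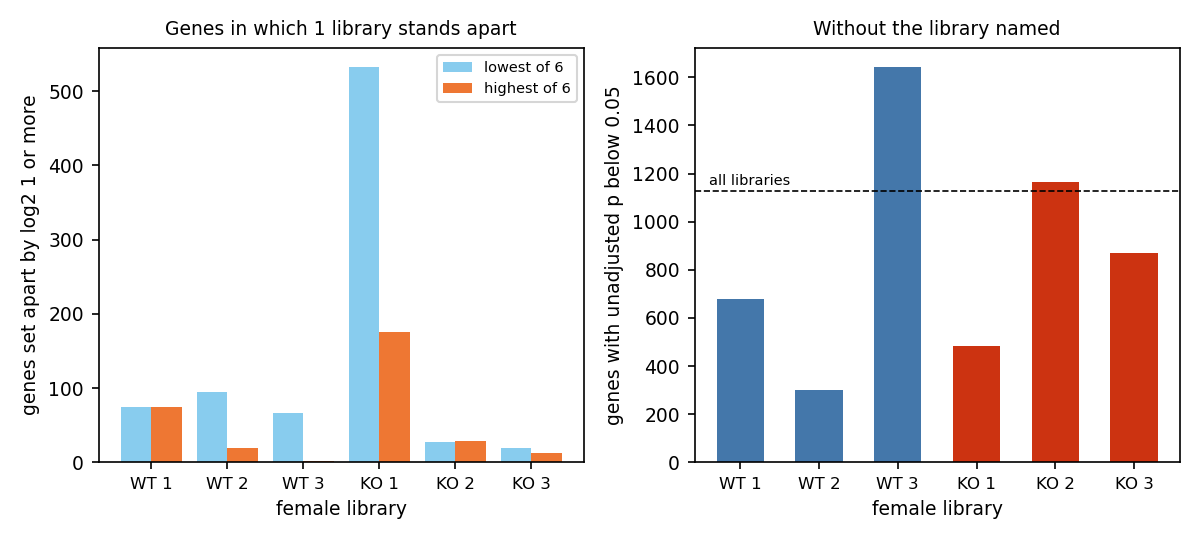
Left, the number of genes (vertical axis) in which each female library is the lowest or the highest of the 6 by a log2 distance of at least 1 to the next library. KO 1 is the lowest in 532 and the highest in 176 genes, and no other library reaches 100 in either direction. Right, the number of genes with an unadjusted p below 0.05 for KO against WT when the library named is left out, with the number over all 6 (1127) as a dashed line.

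By this count KO 1 stood alone in far more genes than any other library. It was the lowest by a log2 distance of 1 or more in 532 genes and the highest in 176, whereas WT 1 was the lowest in 75 and the highest in 74, and WT 2 the lowest in 95 and the highest in 19. It was the lowest or the highest library, by any distance, in 59.3% of genes. Each gene has both a lowest and a highest library, and this share was 44.6% for WT 2 and 16.5% to 33.0% for the others. KO 2 stood out in craniofacial transcription factors, with Tfap2b at 37.3 CPM (1.497 to 8.32 elsewhere) and Msx1 at 47.3 CPM (2.72 to 19.3 elsewhere). WT 1 was high in Penk (60.7 CPM, 3.85 to 13.0 elsewhere) and in the joint lubricant Prg4 (181 CPM, 22.9 to 60.8 elsewhere).

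In the comparison of KO with WT, Sirt7 and 2 genes close to it on chromosome 11 passed the test (edgeR's quasi-likelihood test, two-sided, Benjamini-Hochberg adjusted p below 0.05), which is 0.0192% of the 15613 genes (0.0064% higher, 0.0128% lower). Sirt7 was at 26.6, 25.1 and 28.8 CPM in WT 1 to 3 and at 1.997, 1.90 and 1.66 CPM in KO 1 to 3 (74 to 88 counts). Every KO library was thus far below every WT library, and all labels matched. The level fell to 6.91% of WT, a log2 change of -3.85 ± 0.16 (SE, n = 3 per group, edgeR adjusted p 1.19e-06).

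Pcyt2 encodes the enzyme that makes CDP-ethanolamine for phosphatidylethanolamine. It was at 48.9, 50.2 and 65.9 CPM in WT and at 8.51, 16.4 and 12.1 CPM in KO libraries, without overlap, with the least in KO 1. It fell to 22.4% of WT, a log2 change of -2.16 ± 0.25 (edgeR adjusted p 0.0240). The gene occupies chromosome 11 from 120610087 to 120617936 (GRCm38, minus strand), and Sirt7 occupies 120618372 to 120625240 on the same strand, so Pcyt2 starts 435 bp beyond the end of Sirt7. Fam195b (Mcrip1 in the reference annotation), a regulator of transcriptional repression downstream of MAP kinase, was at 60.2, 56.1 and 63.3 CPM in WT and at 104, 121 and 111 CPM in KO libraries. It rose 1.87-fold with no overlap (log2 change 0.91 ± 0.10, edgeR adjusted p 0.0240). It lies at 120542888 to 120549727.

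The sizes of both neighbours' changes moved little when single libraries were left out, from -2.43 to -1.95 for Pcyt2 and from 0.83 to 0.96 for Fam195b, but their calls often did not hold. By edgeR's adjusted p, both were lost without WT 1 (0.113 for Pcyt2 and 0.212 for Fam195b), WT 2 (0.141 and 0.225), WT 3 (0.129 for both) or KO 3 (0.262 and 0.237). Leaving out a male library, which enters through the shared estimate of the spread, also ended both calls, with 0.0548 without male WT 1, 0.0625 without male WT 3 and 0.0552 without male KO 2. Without KO 2, Fam195b alone was lost (0.168). Sirt7 was called in each of these fits.

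**Figure D2:**
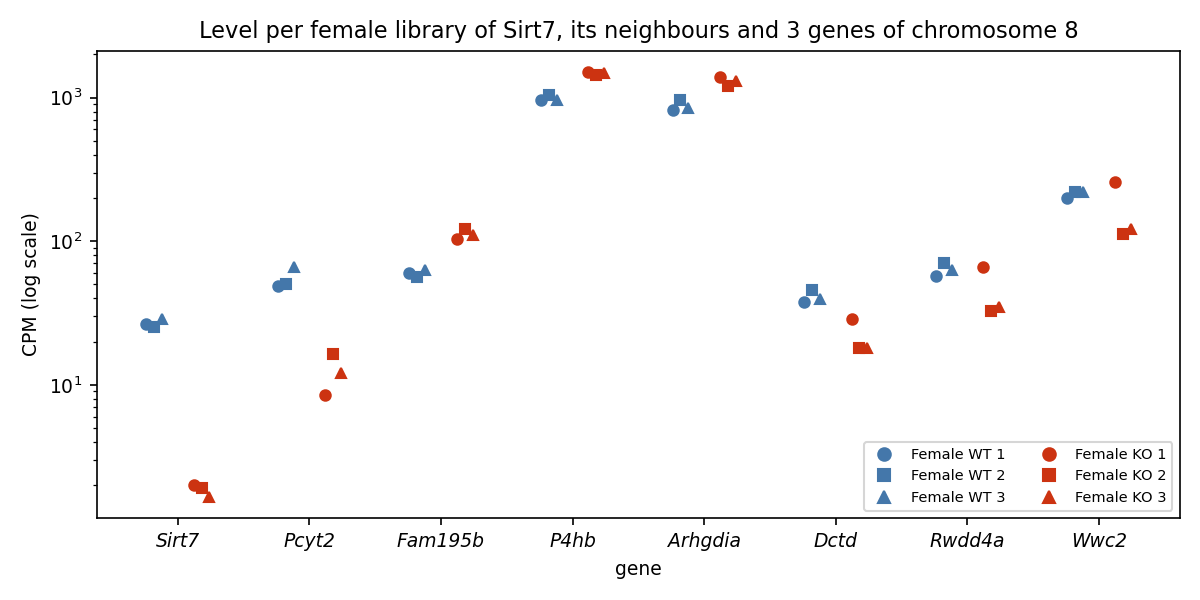
Levels in CPM (vertical axis, log scale) of Sirt7, 4 of its neighbours and 3 genes of chromosome 8 in each of the 6 female libraries; 1 symbol is 1 library, blue WT and red KO. The groups do not overlap for Sirt7, Pcyt2, Fam195b, P4hb, Arhgdia and Dctd, whereas KO 1 lies with or above the WT libraries for Rwdd4a and Wwc2.

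Other genes between Fam195b and Sirt7 differed in their direction. P4hb, a protein disulfide isomerase and subunit of collagen prolyl hydroxylase, was at 961, 1050 and 957 CPM in WT and at 1510, 1443 and 1476 CPM in KO libraries (log2 change 0.58 ± 0.09, edgeR adjusted p 0.292). Arhgdia, an inhibitor of small GTPases, was at 821, 957 and 847 CPM in WT and at 1384, 1210 and 1303 CPM in KO libraries (0.57 ± 0.11, adjusted p 0.635). Neither passed edgeR's test, although the libraries did not overlap, and both passed in DESeq2 (adjusted p 1.98e-04 and 0.0280). The RNA export factor Alyref lies between Arhgdia and Pcyt2 and was lower without overlap, at 86.7, 94.5 and 81.8 against 63.6, 73.9 and 79.0 CPM (-0.28 ± 0.13, adjusted p 0.635).

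Within 100 kb of the Sirt7 start, 14 other genes were tested. Of these, 2 were called, 4 had an unadjusted p below 0.05 and 6 (42.9%) had no overlap between KO and WT libraries, against 7.22% and 19.2% of all 15613 genes. Besides the genes above, the small GTPase Rac3 was higher without overlap (0.41 ± 0.19, adjusted p 0.635). The remaining 8, Gcgr, Anapc11, Mafg, Pycr1, Notum, Aspscr1, Stra13 and Lrrc45, overlapped between the groups, with adjusted p of 0.697 (Mafg) to 0.991 (Stra13). Within 1000 kb, 52 other genes were tested, of which 2 were called and 15 (28.8%) had no overlap. The 52 include the 14 within 100 kb, to which both calls and 6 of the 15 belong. The median absolute log2 change of the 52, 0.180, was close to the 0.161 of all genes. Farther out, the GTPase gene Rab40b was higher without overlap (0.88 ± 0.38) but did not pass the test. Its level was low, at 1.05, 0.41 and 1.06 CPM in WT and at 1.68, 1.52 and 1.44 CPM in KO libraries.

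**Figure D3:**
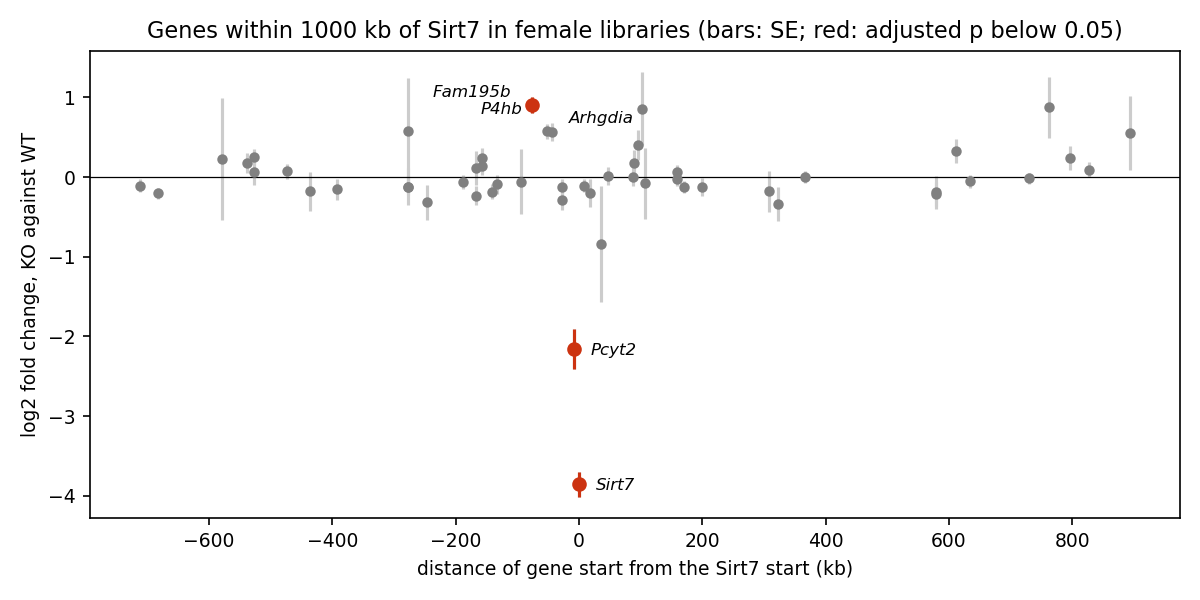
Log2 fold change of KO against WT (vertical axis, bars SE) for each tested gene whose start lies within 1000 kb of the Sirt7 start (horizontal axis, distance in kb along the chromosome). Red marks the 3 genes with adjusted p below 0.05, all within 100 kb. Some neighbours that did not pass, such as Rab40b (0.88 ± 0.38, at 0.41 to 1.68 CPM), lie as high as Fam195b with wider bars.

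Away from this region no gene passed edgeR's test. An unadjusted p below 0.05 was reached by 1127 genes, 473 higher in KO (3.03% of those tested) and 654 lower (4.19%). The 3 KO libraries lay outside the range of the 3 WT libraries in 2990 genes, 1450 higher (9.29%) and 1540 lower (9.86%). Changes were small, with a median absolute log2 change of 0.161 and a 95th percentile of 0.81. A change of at least 1 was fitted for 331 genes upwards and 144 downwards, but only 156 and 37 of these had groups without overlap. DESeq2 called 7 genes (0.0335% of 20871), which were Sirt7, Pcyt2, Fam195b, P4hb, Arhgdia, Dctd and the growth factor receptor Met.

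Some genes with small p are given as values, since they did not pass edgeR's test (adjusted p 0.635 for each). Met was at 52.8, 56.5 and 40.9 CPM in WT and at 24.3, 32.3 and 31.8 CPM in KO libraries (log2 change -0.76 ± 0.16), lower in all 3. Hdac11, a histone deacetylase family member, was at 4.17, 2.51 and 5.26 CPM in WT and at 8.03, 8.26 and 7.50 CPM in KO libraries (0.99 ± 0.27). The lipid transfer protein gene Stard10 was at 13.8, 11.6 and 16.9 against 23.1, 20.1 and 23.3 CPM (0.65 ± 0.15). Both were higher in all 3 KO libraries than in any WT library. Others without overlap were the sorting receptor Sort1 (0.45 ± 0.12), the metalloproteinase Pappa (0.63 ± 0.17), the NF-Y subunit Nfyc (-0.31 ± 0.08) and the folate enzyme Mthfd1l (-0.39 ± 0.11).

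In 3 neighbouring genes of chromosome 8, KO 2 and KO 3 differed from KO 1. Dctd, the dCMP deaminase of nucleotide synthesis, was at 38.0, 45.5 and 39.3 CPM in WT and at 28.7, 18.1 and 18.1 CPM in KO 1 to 3. Rwdd4a was at 57.4, 70.8 and 62.6 CPM in WT and at 66.2, 32.6 and 34.7 CPM in KO libraries. Wwc2, a regulator of the Hippo pathway, was at 200, 221 and 222 CPM in WT and at 257, 112 and 121 CPM in KO libraries. All 3 were lower in KO 2 and KO 3 than in any WT library, whereas KO 1 was within or above the WT range for Rwdd4a and Wwc2. Over all 6 libraries their log2 changes were -0.92 ± 0.17, -0.52 ± 0.23 and -0.39 ± 0.25 (edgeR adjusted p 0.635, 0.635 and 0.653). Without KO 1 they were -1.17, -0.92 and -0.88 and passed the test (0.00750, 0.0264 and 0.00750), which raised the number of genes called from 3 to 6. That fit shares its estimate of the spread with the male libraries. When only the female libraries less KO 1 were fitted, Sirt7 alone was called, so none of the chromosome 8 genes passed.

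No other enzyme of the pathway of Pcyt2 passed the test. Of 17 tested genes of phosphatidylethanolamine and phosphatidylcholine synthesis, Pcyt2 was the 1 called, 2 had an unadjusted p below 0.05 in the lower direction (4.19% of all genes did) and 9 had a positive change. The number at an unadjusted p below 0.05 was 3 without WT 1 or KO 1 and 1 without any other female library. Of all genes, 4.26% and 3.03% were below 0.05 without WT 1 and KO 1, and 1.88% to 10.3% without the others. The other of the 2 was Ept1, the ethanolamine phosphotransferase that uses the product of Pcyt2, at 81.4, 90.3 and 84.2 CPM in WT and 82.3, 73.3 and 74.3 CPM in KO libraries (log2 change -0.15 ± 0.07, unadjusted p 0.0429), so KO 1 lay within the WT range. The remaining 15 had an unadjusted p of 0.0899 (the kinase Etnk2) or more. The paralogous choline enzyme Pcyt1a was at 119, 127 and 124 against 112, 127 and 121 CPM.

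None of the other sirtuins passed the test. Sirt1, the nuclear deacetylase, was at 38.9, 36.7 and 33.3 CPM in WT and 28.0, 32.7 and 31.5 CPM in KO libraries (log2 change -0.24 ± 0.13, edgeR adjusted p 0.635). The mitochondrial Sirt5 was at 5.18, 3.74 and 6.30 against 7.12, 6.98 and 7.01 CPM (0.47 ± 0.23) and Sirt4 at 6.95, 6.06 and 7.99 against 9.03, 8.37 and 8.36 CPM (0.29 ± 0.20). These 3 had no overlap, in opposite directions, but none passed the test. Sirt6, the other sirtuin of chromatin, was at 29.6, 29.5 and 31.3 against 29.3, 33.0 and 30.4 CPM (0.04 ± 0.10, with its sign turned without KO 2), and Sirt2 and Sirt3 overlapped between the groups.

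Genes of proteins known to bind SIRT7 or to be its substrates were mostly lower. Of 16 tested, 15 had a negative change, with a median of -0.25 (0.01 over all genes), 11 had no overlap (9.86% of all genes in that direction), 6 had an unadjusted p below 0.05 and none passed the adjusted test. Ddx21, a nucleolar helicase, was at 377, 451 and 353 CPM in WT and at 277, 295 and 314 CPM in KO libraries (-0.41 ± 0.15). Nucleophosmin Npm1 was at 489, 586 and 477 against 418, 428 and 439 CPM (-0.27 ± 0.10), and Mybbp1a, a nucleolar regulator of RNA polymerase I, was at 480, 571 and 465 against 378, 385 and 429 CPM (-0.35 ± 0.13). Gabpb1, a subunit of the mitochondrial gene regulator GABP, was at 50.4, 51.5 and 49.0 against 43.3, 44.0 and 41.6 CPM (-0.23 ± 0.07). WT 2 was the highest library for all 4. Without KO 1 the median of the list was -0.20, with 1 unadjusted p below 0.05, and without WT 2 it was -0.15, also with 1. Of all genes, 3.03% and 1.88% were below 0.05 in these fits.

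RNA polymerase I transcribes the precursor of ribosomal RNA, which nucleolar enzymes then modify and cut. The list of RNA polymerase I and rRNA processing held 97 tested genes, of which 93 had a negative change, with a median of -0.26, 74 were lower without overlap and 48 had an unadjusted p below 0.05 in that direction (9.86% and 4.19% of all genes). None passed the adjusted test. The pseudouridine synthase Dkc1, an X-linked gene, was at 140, 160 and 120 CPM in WT and at 77.6, 98.3 and 101 CPM in KO libraries (-0.60 ± 0.18). Polr1a, the largest subunit of RNA polymerase I, was at 173, 186 and 157 against 136, 126 and 148 CPM (-0.34 ± 0.12). Treacle (Tcof1), which organises ribosomal gene transcription, was at 291, 286 and 228 against 155, 196 and 205 CPM (-0.53 ± 0.19). In all 3 genes every KO library was below every WT library.

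The list score was -0.33, -0.24 and -0.17 in KO 1 to 3 and -0.05, 0.15 and -0.10 in WT 1 to 3, so the groups did not overlap, and WT 2 was the highest. The number of genes with an unadjusted p below 0.05, which was 48, became 11 without KO 1 (3.03%) and 4 without WT 2 (1.88%). It was 33 without KO 2 (7.34%), 41 without WT 1 (4.26%), 46 without KO 3 (5.46%) and 59 without WT 3 (10.3%). The share of all genes in the same fit is in brackets. The medians of the list were -0.21 without KO 1 and -0.17 without WT 2. Cytosolic ribosomal proteins, encoded by 78 tested genes, had a median of -0.04 with 11 lower without overlap (9.86% of all genes), and WT and KO scores overlapped. These genes have near-identical copies elsewhere in the genome that could share reads, and are uncertain for that reason.

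Genes of cell division shared a direction throughout. The fitted change was below 0 for each of 79 genes that act in G2 or mitosis (47.6% of all genes), and its median was -0.45. Of these, 44 had an unadjusted p below 0.05 (4.19% of all genes in that direction) and 41 were lower without overlap (9.86%), and none passed the adjusted test. The securin Pttg1 was at 59.7, 64.6 and 47.1 CPM in WT and at 39.6, 46.3 and 44.0 CPM in KO libraries (-0.40 ± 0.13). Cyclin B1 (Ccnb1), the partner of the mitotic kinase, was at 69.1, 80.0 and 54.0 against 34.3, 51.0 and 48.6 CPM (-0.60 ± 0.24), and the kinase Plk1 at 226, 246 and 176 against 135, 163 and 166 CPM (-0.48 ± 0.20). In each, KO 1 was lowest, and WT 3 lay just above KO 2 or KO 3.

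The list score put numbers on that order, with -0.67, -0.28 and -0.34 in KO 1 to 3 and 0.06, 0.20 and -0.27 in WT 1 to 3. WT 3 lay below the other WT libraries and next to KO 2 and KO 3. The 44 genes with an unadjusted p below 0.05 became 2 without KO 1 (3.03%), 1 without WT 2 (1.88%) and 5 without WT 1 (4.26%). They became 26 without KO 3 (5.46%), 47 without KO 2 (7.34%) and 68 without WT 3 (10.3%). Brackets hold the share of all genes in the same fit. The numbers out of 79 without KO 1 or WT 2 did not exceed that share. The median was -0.33 without KO 1, -0.34 without WT 2 and -0.58 without WT 3, and without KO 1 all 79 changes were still negative. KO 1 is also the library with the lowest muscle and highest macrophage scores, and the part of those differences in the shift was not tested.

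Promoters of 4 of these genes are shown because members shared a direction. They are the genes of smallest p in the list whose RefSeq start (GRCm38.p6) lay within 50 bases of the annotated one, each from 250 bases before to 50 after the start. This rule replaced earlier ones after motif matches had been seen. Capitals mark TTTGAA (the cell cycle genes homology region, CHR) and CCAAT (the NF-Y box), each on either strand. Birc5 (survivin, a passenger protein of mitotic chromosomes, chr11:117848987-117849286, plus strand), Depdc1a (a mitotic gene, chr3:159495183-159495482, plus strand), Ect2 (a nucleotide exchange factor of cytokinesis, chr3:27153829-27154128, minus strand) and Kif18a (a kinesin that aligns chromosomes, chr2:109280488-109280787, plus strand) read as follows.
Birc5: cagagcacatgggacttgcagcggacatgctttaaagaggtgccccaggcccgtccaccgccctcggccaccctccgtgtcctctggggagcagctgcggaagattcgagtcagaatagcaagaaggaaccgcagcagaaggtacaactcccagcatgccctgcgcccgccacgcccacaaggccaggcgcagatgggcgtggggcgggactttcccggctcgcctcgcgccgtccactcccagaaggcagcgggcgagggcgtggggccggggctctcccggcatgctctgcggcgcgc
Depdc1a: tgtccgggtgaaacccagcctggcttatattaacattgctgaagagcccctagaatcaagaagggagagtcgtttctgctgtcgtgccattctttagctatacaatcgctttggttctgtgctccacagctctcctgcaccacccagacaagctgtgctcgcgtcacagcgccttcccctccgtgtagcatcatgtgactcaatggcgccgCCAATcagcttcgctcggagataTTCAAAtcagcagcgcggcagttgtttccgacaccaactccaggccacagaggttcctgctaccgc
Ect2: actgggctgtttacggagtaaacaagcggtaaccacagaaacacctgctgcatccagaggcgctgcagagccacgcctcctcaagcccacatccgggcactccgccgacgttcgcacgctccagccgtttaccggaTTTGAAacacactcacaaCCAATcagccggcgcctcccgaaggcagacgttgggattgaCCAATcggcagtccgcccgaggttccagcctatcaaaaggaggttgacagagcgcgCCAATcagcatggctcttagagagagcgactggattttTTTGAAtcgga
Kif18a: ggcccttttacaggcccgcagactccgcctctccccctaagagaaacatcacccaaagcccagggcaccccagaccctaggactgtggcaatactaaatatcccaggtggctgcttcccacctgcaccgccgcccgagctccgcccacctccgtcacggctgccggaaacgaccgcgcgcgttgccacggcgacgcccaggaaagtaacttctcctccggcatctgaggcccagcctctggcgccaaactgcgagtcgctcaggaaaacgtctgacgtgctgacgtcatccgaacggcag
Depdc1a held 1 CHR and 1 CCAAT, Ect2 2 and 3, and Birc5 and Kif18a held neither. Their log2 changes were -0.58 ± 0.21 (Depdc1a), -0.58 ± 0.21 (Ect2), -0.45 ± 0.15 (Birc5) and -0.49 ± 0.18 (Kif18a). All 4 were picked for a small p from a list in which every change was negative. Their sizes therefore cannot be compared by motif.

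Across the list TTTGAA stood in 44 of 67 promoters matched (65.7%), against 1445 of 11960 promoters of all tested genes (12.1%), and CCAAT in 49 (73.1%) against 38.4%. CCAAT also stood in 59.6% of S phase promoters and in 55.3% of the 38 promoters of p53 targets, a list with the opposite direction. In the 57 promoters of S phase genes the E2F motifs TTTCCCGC and TTTGGCGC stood in 15.8% and 14.0%, against 2.02% and 0.936% of all. In the 86 promoters of the RNA polymerase I list, TTTGAA stood in 10.5% and the E-box CACGTG in 18.6%, against 12.1% and 9.79% of all. These motifs, 6 in all with the NRF1 motif (in 5.26% of S phase promoters, in none of those of the other 3 lists and in 1.86% of all), were chosen after the expression values were known. All were searched on both strands, none contains another, and a match describes the sequence only.

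Genes of S phase and DNA replication followed the same order of libraries. All 70 tested had a negative change, with a median of -0.39, 43 were lower without overlap (9.86% of all genes) and 24 had an unadjusted p below 0.05 (4.19% of all genes). In edgeR none passed the adjusted test, and DESeq2 called 1, Dctd (described above). The primase Prim1 was at 49.8, 54.0 and 39.9 CPM in WT and at 25.8, 36.7 and 33.4 CPM in KO libraries (-0.58 ± 0.19). Pole, the leading-strand polymerase, was at 108, 120 and 91.7 against 62.8, 79.6 and 82.4 CPM (-0.51 ± 0.18). The score was -0.61, -0.27 and -0.29 in KO and 0.04, 0.17 and -0.20 in WT libraries, again with WT 3 nearest to the KO libraries. The 24 genes became 2 without KO 1 (3.03% of all genes in that fit), 2 without WT 2 (1.88%) and 7 without WT 1 (4.26%). They became 22 without KO 2 (7.34%), 23 without KO 3 (5.46%) and 43 without WT 3 (10.3%). Here too the brackets hold the share of all genes, which the number out of 70 without KO 1 did not exceed. The median of the list without KO 1 was -0.28.

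Of 65 DNA repair genes, 56 had a negative change, with a median of -0.23, 19 were lower and 2 higher without overlap (9.86% and 9.29% of all genes), and 10 had an unadjusted p below 0.05, all lower (4.19% of all genes). Fancl, the ubiquitin ligase of the Fanconi pathway, was at 13.2, 12.7 and 13.3 CPM in WT and at 8.08, 9.42 and 9.17 CPM in KO libraries (-0.55 ± 0.13), with little spread inside either group. Bard1, the partner of BRCA1, was at 18.7, 17.9 and 13.6 against 8.42, 11.2 and 12.8 CPM (-0.63 ± 0.22), and the nuclease Mre11a at 54.2, 58.0 and 49.0 against 41.3, 46.05 and 40.7 CPM (-0.33 ± 0.11). The 10 genes became 2 without KO 1 (3.03%), 2 without WT 2 (1.88%) and 4 without WT 1 (4.26%). They became 9 without KO 3 (5.46%), 11 without KO 2 (7.34%) and 16 without WT 3 (10.3%). Brackets again hold the share of all genes in the same fit, and the 2 of 65 without KO 1 were near it.

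Targets of the tumour suppressor p53 leaned the other way. Of 49 tested, 45 had a positive change, with a median of 0.30, 13 were higher without overlap (9.29% of all genes) and 3 had an unadjusted p below 0.05 (3.03% of all genes), and none passed the adjusted test. The epithelial adhesion and apoptosis gene Perp was at 3.06, 4.10 and 2.52 CPM in WT and at 13.6, 4.43 and 6.47 CPM in KO libraries (1.34 ± 0.51, and 0.76 without KO 1). Pmaip1 (Noxa) was at 5.16, 7.20 and 16.5 against 35.3, 15.9 and 24.0 CPM (1.38 ± 0.58), and Bbc3 (Puma) at 7.78, 6.95 and 12.2 against 12.9, 14.8 and 13.8 CPM (0.63 ± 0.26). KO 1 was highest for Perp and Pmaip1, and WT 3 overlapped the KO libraries for Pmaip1. Cdkn1a (p21), the cell cycle inhibitor, was at 218, 268 and 344 against 521, 320 and 403 CPM (0.58 ± 0.30, edgeR adjusted p 0.635, and 0.39 without KO 1). The list score was 0.51, 0.28 and 0.33 in KO and -0.07, -0.13 and 0.21 in WT libraries, so WT 3 was again the WT library nearest to the KO group. The 3 genes became 0 without WT 1 (4.26%) and 1 without WT 2 (1.88%), KO 1 (3.03%) or KO 3 (5.46%). They became 7 without KO 2 (7.34%) and 14 without WT 3 (10.3%), with the share of all genes in the same fit in brackets. The median of the list was 0.25 without KO 1 and 0.47 without WT 3.

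**Figure D4:**
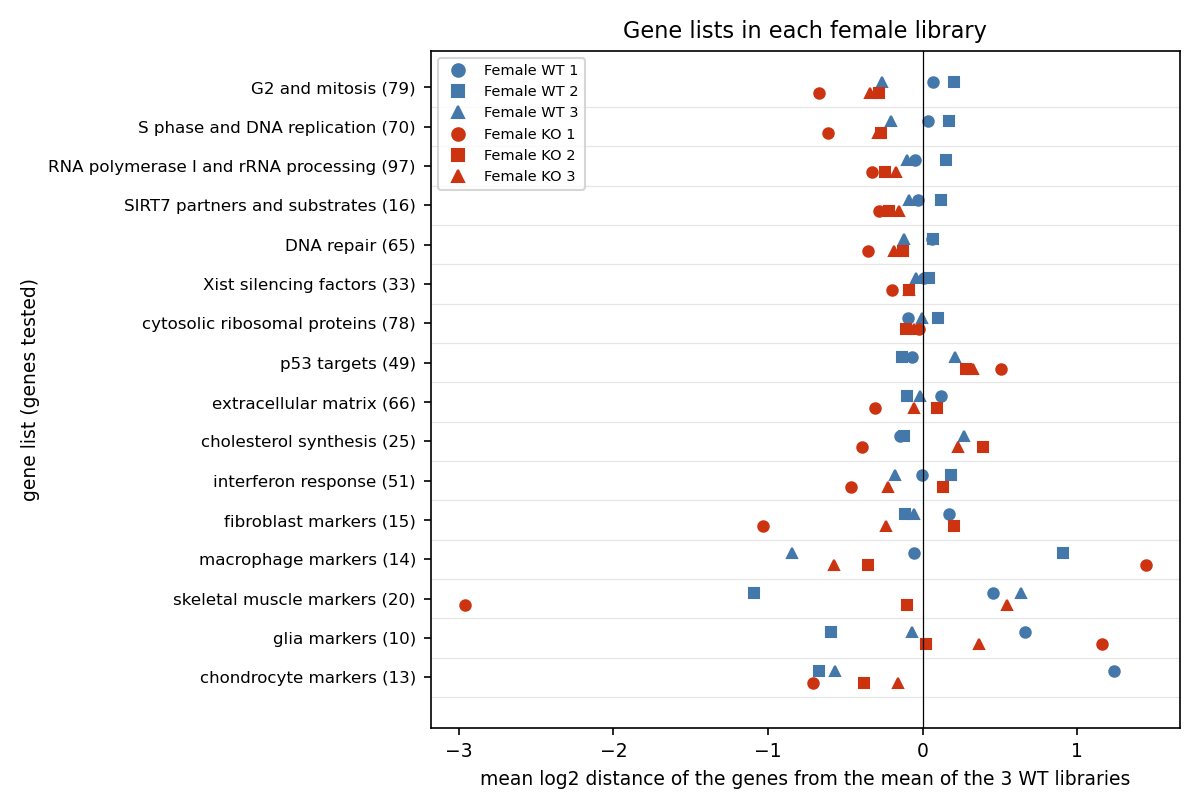
Scores of gene lists (rows, with the number of genes tested) in the 6 female libraries; the horizontal axis is the mean log2 distance of the genes from the mean of the 3 WT libraries, and 1 symbol is 1 library, blue WT and red KO. KO symbols lie to the left of all WT symbols for cell division, RNA polymerase I and DNA repair genes and to the right for p53 targets, and KO 1 is the lowest library for fibroblast and muscle markers and the highest for macrophage and glial markers, the latter with a wide spread among WT libraries.

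Several other programmes did not separate the genotypes. Extracellular matrix genes (66 tested) had a median of -0.01, with scores of -0.31, 0.10 and -0.06 in KO and 0.12, -0.10 and -0.02 in WT libraries. Interferon response genes (51) had a median of -0.10 (0.02 without KO 1) and scores of -0.46, 0.13 and -0.22 against -0.01, 0.18 and -0.18, and cholesterol synthesis genes (25) a median of 0.08 (0.28 without KO 1, 0.22 without WT 3 and -0.002 without WT 1) and scores of -0.39, 0.39 and 0.23 against -0.15, -0.12 and 0.27. In all 3 lists KO 1 was the lowest library and KO 2 lay within or above the WT range. Oxidative phosphorylation genes (72, median 0.02), genes of the integrated stress and unfolded protein responses (49, median -0.06) and glycolysis and hypoxia genes (32, median 0.00) also overlapped. Hox genes (38) had a median of 0.18 over all libraries and -0.09 without KO 1.

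Xist itself did not differ between the genotypes beyond its spread. It was at 645, 544 and 553 CPM in WT and at 467, 638 and 551 CPM in KO libraries, a log2 change of -0.07 ± 0.11 (edgeR adjusted p 0.856), which turned to 0.04 without KO 1 and to 0.0036 without WT 1. All 8 tested genes of the X inactivation centre, Xist among them, overlapped between the groups, with 0 at an unadjusted p below 0.05. The ligase Rlim, an activator of Xist, was at 133, 150 and 148 against 117, 128 and 135 CPM, and the noncoding Ftx at 10.8, 9.35 and 10.9 against 6.60, 11.0 and 8.88 CPM, lowest in KO 1. Of 33 factors known to act with Xist in silencing, 29 had a negative change with a median of -0.09, and 17 were lower without overlap (9.86% of all genes). The score was -0.20, -0.09 and -0.09 in KO and 0.01, 0.04 and -0.05 in WT libraries, and 4 members had an unadjusted p below 0.05 (4.19% of all genes in that direction), the RNA-binding proteins Hnrnpk, Ptbp1 (-0.19 ± 0.08), Hnrnpc (-0.19 ± 0.08) and Tardbp (-0.21 ± 0.09). That number was 0 without KO 1 (3.03%) or WT 2 (1.88%) and 3 without WT 1 (4.26%) or KO 3 (5.46%). It was 5 without KO 2 (7.34%) and 10 without WT 3 (10.3%), with the share of all genes in the same fit in brackets.

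The X-linked genes were also compared with the autosomal genes as a whole. The median log2 change was 0.00 over 537 X-linked and 0.01 over 15072 autosomal genes. Set against autosomal genes, the median level of X-linked genes (log2 ratio of CPM) was -0.22, -0.30 and -0.26 in WT and -0.27, -0.21 and -0.25 in KO libraries. The means, -0.26 ± 0.04 and -0.24 ± 0.03 (SD, n = 3), differed by 0.0148, less than the spread in either group. A two-sided exact permutation test of 3 against 3 libraries cannot go below 0.1, so its p of 0.7 adds little to these values. The sign of that difference depended on the genes kept, and it was -0.03 with genes of a mean CPM of 1 or more. The share of all counts on X-linked genes did not overlap, at 3.30% to 3.33% in WT and 3.28% to 3.29% in KO libraries.

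**Figure D5:**
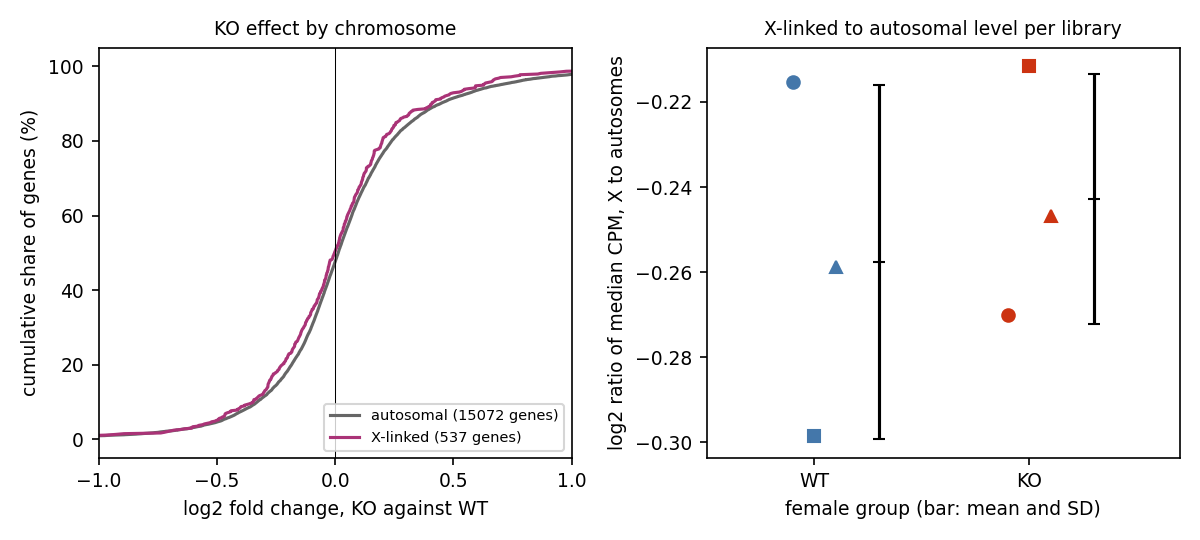
Left, cumulative share of genes (vertical axis, %) by log2 fold change of KO against WT (horizontal axis) for 537 X-linked and 15072 autosomal genes; the curves run close together through 0. Right, the log2 ratio of median X-linked to median autosomal CPM in each of the 6 female libraries, with bars for mean and SD; WT and KO libraries overlap.

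Of 537 X-linked genes, 25 were lower and 9 higher at an unadjusted p below 0.05, beside 4.19% and 3.03% of all genes, so the lower count was near the background and the higher one under it. Without overlap, 56 were lower and 35 higher, beside 9.86% and 9.29% of all genes, again near the background and under it. The following are values of single genes. Besides Dkc1, the lower ones included the ADP/ATP carrier Slc25a5 at 226, 258 and 212 CPM in WT and 180, 193 and 189 CPM in KO libraries (-0.31 ± 0.10) and the repressor Nkrf (-0.45 ± 0.14). Among the higher ones was Renbp, a sugar epimerase, at 15.1, 14.3 and 15.5 against 17.9, 21.5 and 20.9 CPM (0.43 ± 0.14). None passed the adjusted test. Of 15 genes listed for escape from X inactivation, 13 had a negative change, with a median of -0.04. The list includes Xist, Ftx and Jpx, all negative and also counted in the X inactivation centre. It also includes Utp14a, which is in the RNA polymerase I list too, so these lists are not independent. Of these 15, 2 had an unadjusted p below 0.05 (4.19% of all genes), with 0 without WT 1, WT 2 or KO 1 and 1 without KO 3. Of all genes, 4.26%, 1.88%, 3.03% and 5.46% were below 0.05 in those fits. In the list, 3 genes were lower without overlap (9.86% of all genes). The 3 were the RNA helicase Ddx3x, at 503, 568 and 487 against 412, 445 and 464 CPM (-0.24 ± 0.11), Pbdc1 (-0.26 ± 0.10) and the rRNA processing factor Utp14a (-0.26 ± 0.12). Kdm5c, a histone demethylase and a known escape gene, was at 254, 232 and 244 against 237, 236 and 239 CPM (-0.04 ± 0.06).

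Leaving out single libraries changed which genes reached a small p. Of the 1127 genes with an unadjusted p below 0.05 over all 6 female libraries, the number still below 0.05 was 295 (26.2%) without KO 1, 213 (18.9%) without WT 2 and 496 (44.0%) without WT 1. It was 695 without KO 3, 748 without KO 2 and 941 (83.5%) without WT 3. Counting every gene afresh, 300 had an unadjusted p below 0.05 without WT 2 and 1641 without WT 3, against 1127 over all 6 libraries. As shares of the genes tested in each fit, these were 4.26% without WT 1, 1.88% without WT 2, 10.3% without WT 3, 3.03% without KO 1, 7.34% without KO 2 and 5.46% without KO 3. Called genes made up 0.0377% without KO 1, 0.0126% without KO 2, 0.00629% without KO 3 and 0.00628% without any 1 of the WT libraries. The share of negative changes ran from 47.2% without WT 1 or WT 2 to 50.3% without KO 2, with 49.0% without WT 3, 48.5% without KO 1 and 48.9% without KO 3.

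A test of the difference between the female and male effects of KO called no gene with edgeR, with 868 genes (5.56%) at an unadjusted p below 0.05, so nothing above is shown to be particular to female cells. DESeq2 called 1, Copz2, a coat protein of Golgi vesicles, which was at 127, 124 and 128 CPM in female WT and 127, 128 and 125 CPM in female KO libraries, without a difference there (log2 change 0.00 ± 0.06), and had a male log2 change of 0.48 ± 0.06. The genes next in p for the difference were Lmo4, Rcn3, Pycr1 and Pcdh11x (edgeR adjusted p 0.778 for each). Sirt7, Pcyt2 and Fam195b had male changes of -4.03, -2.15 and 0.97, with differences of 0.18 ± 0.20, -0.01 ± 0.35 and -0.06 ± 0.15 from the female ones. For G2 and mitosis genes the male median was 0.01, with 3 of 79 at an unadjusted p below 0.05 for the difference, and for RNA polymerase I genes it was -0.23, with 0 of 97. For p53 targets it was -0.15, with 10 of 49, and for stress response genes 0.20, with 18 of 49. None of these members passed the adjusted test of the difference.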

How the data were processed

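Levels are whole-number read counts per gene in a table the authors deposited, with 1 column per library and genes named by chromosome and symbol. They were treated as raw counts. The table is named as calibrated, no source used here says what that means, and all its rows lie on mouse chromosomes or unplaced sequence, so changes are relative to the other genes and a change in total RNA would not be seen. The submitters' processing notes list the aligner HISAT2 2.1.0, StringTie 1.3.3, SAMtools 0.1.19, DESeq2 1.32.0, Trimmomatic 0.36 and FastQC 0.11.3 with builds mm10 and GRCm38. No source used here states the strand setting or how multiply placed reads were handled, so overlapping genes and near-identical copies may share reads. Among counts of 2 to 19, 83.6% to 89.8% were even, and low counts may overstate the number of fragments.

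Genes were filtered with filterByExpr by group, scaled by TMM and fitted with 1 robust quasi-likelihood model of 4 group means over all 12 libraries (edgeR 4.0.16, limma 3.58.1, R 4.3.3), with 8 residual degrees of freedom. KO was tested against WT in females, with p adjusted by Benjamini-Hochberg over 15613 genes at 0.05, and log2 changes carry their SE. CPM use TMM-scaled library sizes. DESeq2 1.42.0 was an alternative. Scripts were tested on simulated data. List scores use log2 CPM with a prior count of 2. Gene positions come from a reference annotation of GRCm38, to which 23936 of 24421 names matched, 672 by synonym. Promoters come from RefSeq (GRCm38.p6), with an entry for 11960 tested genes.

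The members and the 35 gene lists (12 of them cell type markers) were chosen with earlier results of these data known, so lists are described by counts and medians with no test. Genes were named by rule. They are Sirt7, Xist, the Y-linked genes, genes within 100 kb of Sirt7 and called genes. They include up to 10 genes per direction of smallest p without overlap, at a mean CPM of at least 1 (the text gives some of these), up to 4 members per list and 4 X-linked genes per direction. Genes that set 1 library apart (mean CPM of 5 or more), genes called without KO 1, the 5 genes of smallest p for the difference and Rwdd4a, Wwc2 and Dctd complete the rule. Chosen after their values were seen were Ccnb1, Plk1, Polr1a, Tcof1, Ect2, Kif18a, Lum, Pdgfra, Myog, Tbx5, Hoxb8, Rab40b and the markers at 0. Motifs, and the final rule for the promoters printed, were also set after values and matches were seen. Alternatives were another scaling, tool, filter, prior, minimum fold, replicate block and set of libraries, each library left out in turn, and, added after seeing the data, the female libraries alone without KO 1. Some genes that the rule names are not reported here.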

Additional observations from a re-analysis of the deposited data

How the results depend on the processing

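Of the 3 genes called for KO against WT, counts under the alternatives were 7 with DESeq2, 5 without both KO 1 and male WT 3, 1 with the 6 female libraries alone and 1 with these less KO 1 (chosen after seeing the data). Leaving out each of the 12 libraries gave 1 to 6. With the replicate number as a block the count was 1, Pcyt2 and Fam195b being lost (edgeR adjusted p 0.310 and 0.439), and no other call changed. Deviations of libraries that share a number correlated at -0.17, -0.21 and 0.16 over genes, and those of other pairs at -0.18 to 0.26. With 3 libraries per group, such values cannot show whether the numbers pair the samples. Fam195b was also lost when a fold of 1.2 was the null. With the female libraries alone the adjusted p was 0.402 for Pcyt2 and 0.111 for Fam195b, and both were lost without KO 1 in that fit. Pcyt2 was lost without both KO 1 and male WT 3. Sirt7 was called in every alternative run.

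The count for the difference between sexes was 0 in edgeR under each alternative run and 1 in DESeq2. The difference for X-linked against autosomal genes in female libraries, 0.0148, was -0.028 with a mean CPM of 1 or more, -0.021 with at least 1 count in every female library and -0.00575 to 0.0359 over the libraries left out in turn, with -0.00575 without WT 2 and -0.000829 without KO 2. Xist ran from -0.20 to 0.035 over these, turning to 0.035 without KO 1 (0.034 in female libraries alone, 0.035 also without male WT 3) and to 0.0036 without WT 1, and Sirt6 ran from -0.022 (without KO 2) to 0.075. Of 1886 changes of 82 named genes under alternatives, 1848 kept direction and side of the threshold, 23 lost a call, 10 gained one and 5 reversed. List medians moved by more than the SD of the KO libraries in 17 of 217 refits. The median SE of a log2 change, 0.175, and the common biological variation of 24.4% limit which changes could be detected.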
